A study of Mus musculus with 14 samples.

Results

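The enzymes that add or remove acetyl and methyl groups on the NF-κB subunit p65 are described here at the level of their own mRNA, in fibroblasts that carry wild type or acetylation-deficient p65. The 8 genes are the acetyltransferases *Ep300* and *Crebbp*, the deacetylases *Hdac1*, *Hdac2*, *Hdac3*, *Sirt1* and *Sirt2*, and the methyltransferase *Setd7*. Every non-control probe that the array files name after one of them was taken, which gave 20 of 41174 probes for 8 of 27962 gene names. In at least 1 group, 16 of these exceeded background clearly on all arrays and could be tested, as could 22172 probes in all. Each of the 8 genes had at least 1 tested probe.

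The cells were NIH 3T3 mouse embryonic fibroblasts lacking p65, *p65*(-/-), which had been infected with lentivirus, selected with blasticidin and kept as pools rather than clones. They carried wild type p65, the triple mutant KTR (K310/314/315R, lysines replaced by arginine), the double mutant K314/315R, or the empty vector pTV, so that all 5 groups share the loss of endogenous p65 and a lentiviral vector. After overnight starvation all 4 lines received mouse TNFα at 30 ng/ml for 3 h. A further group of wild type cells received none (0 h). RNA was hybridised to 14 one-colour Agilent arrays, 3 per group and 2 for K314/315R.

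p300 and CBP, the products of *Ep300* and *Crebbp*, are closely related coactivators that are recruited by p65 and acetylate both histones and p65 itself. Class I histone deacetylases act within corepressor complexes, HDAC1 and HDAC2 with Sin3 and NuRD and HDAC3 with NCoR, whereas SIRT1 and SIRT2 are NAD-dependent and reside mainly in the nucleus and the cytoplasm, respectively. SETD7, also known as Set9, methylates lysines of a histone and of several transcription factors, p65 included. The paper names K310, K314 and K315 of p65 as sites acetylated by p300 and cites methylation of K314/315 by Set9. KTR lacks all of these lysines, and K314/315R keeps K310. The arrays were used to ask whether the enzymes' transcripts differed between the lines or after TNFα.

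The arrays of a group correlated at 0.984 to 0.995 across tested probes. The 75th percentile of the signal was between 967 and 1442 per array. Wild type at 0 h and 3 h, KTR and pTV had 1 array on each of slides 1 to 3, with the replicate number equal to the slide, whereas both K314/315R arrays were on slide 4, so that the slide and the K314/315R line cannot be told apart. All 8 fibroblast markers were tested (*Col1a1*, *Col1a2*, *Col3a1*, *Fn1*, *Vim*, *Thy1*, *Pdgfrb* and *S100a4*). On no array were *Ptprc*, *Emr1*, *Itgam*, *Cdh1*, *Epcam* or any of the 4 endothelial markers well above background, and 2 of 5 macrophage markers and 2 of 4 epithelial markers were tested, *Krt8* on all 14 arrays. Both *Rela* probes, whose position in the gene was not examined, gave a signal well above background in all pTV arrays. At *Rela* probe A_52_P186119, wild type at 3 h exceeded pTV by 0.61 on the log2 scale (adjusted p = 0.0218, limma), and at the brighter probe A_51_P385993 by 0.35 (95% interval -0.02 to 0.72, adjusted p = 0.213). Wild type at 0 h averaged -2.58 and 1.01 at these probes, against -2.56 and 1.18 in pTV. After TNFα wild type rose by 0.63 (adjusted p = 0.0447) and 0.52 (adjusted p = 0.123). The part of the introduced p65 in these differences was not tested.

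Throughout, a level is the log2 of the processed signal minus the log2 of the 75th percentile of that array. Levels of different probes depend on probe sequence and are not set against each other. Whether the arrays of groups overlap is given as a description only, since the share of all tested probes without overlap was not counted. A difference is a log2 difference between group means with its 95% confidence interval from limma, and a probe was called at a Benjamini-Hochberg adjusted p under 0.05 over all tested probes. In RNA of whole cultures, less transcript per cell and fewer cells with the transcript cannot be told apart.

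None of the 16 enzyme probes was called in any of the 5 comparisons in the main fit, which does not pair arrays by slide. For wild type at 3 h over 0 h, limma called 0 of 16 against 4.68% of all tested probes, or 1.55% when a fold over 1.8 was also required. For wild type over pTV the count was again 0, against 14.8% and 6.27% of all tested probes. For KTR over wild type it was 0, against 0.235% and 0.167%. For K314/315R over wild type it was 0, against 2.21% and 1.2%, and for KTR over K314/315R it was 0, against 5.41% and 2.55%. At an unadjusted p under 0.05 the 5 counts were 0, 0, 0, 2 and 1 of 16, where 17.0%, 26.3%, 9.19%, 17.4% and 21.4% of all tested probes passed. With the slide as a fixed block in limma on slides 1 to 3, *Crebbp* probe A_51_P518851 was called for wild type over pTV (adjusted p = 0.0257). Unadjusted p was then also under 0.05 for *Sirt2* probes A_52_P547447 (0.0284) and A_51_P110068 (0.0437) there. After TNFα it was so for *Hdac3* (0.0391) and *Ep300* probe A_52_P179662 (0.0210).

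Of the 80 differences (16 probes in 5 comparisons), 78 had a 95% confidence interval lying wholly within a 1.8-fold change in either direction, and all 80 lay within 2-fold. The 2 wider intervals belonged to *Setd7* probe A_52_P679434 in KTR over wild type and to *Crebbp* probe A_51_P448224 in K314/315R over wild type, neither of which was well above background on all 14 arrays. For the brightest probe of each gene, all 40 intervals lay within 1.8-fold.

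**Figure D1:**
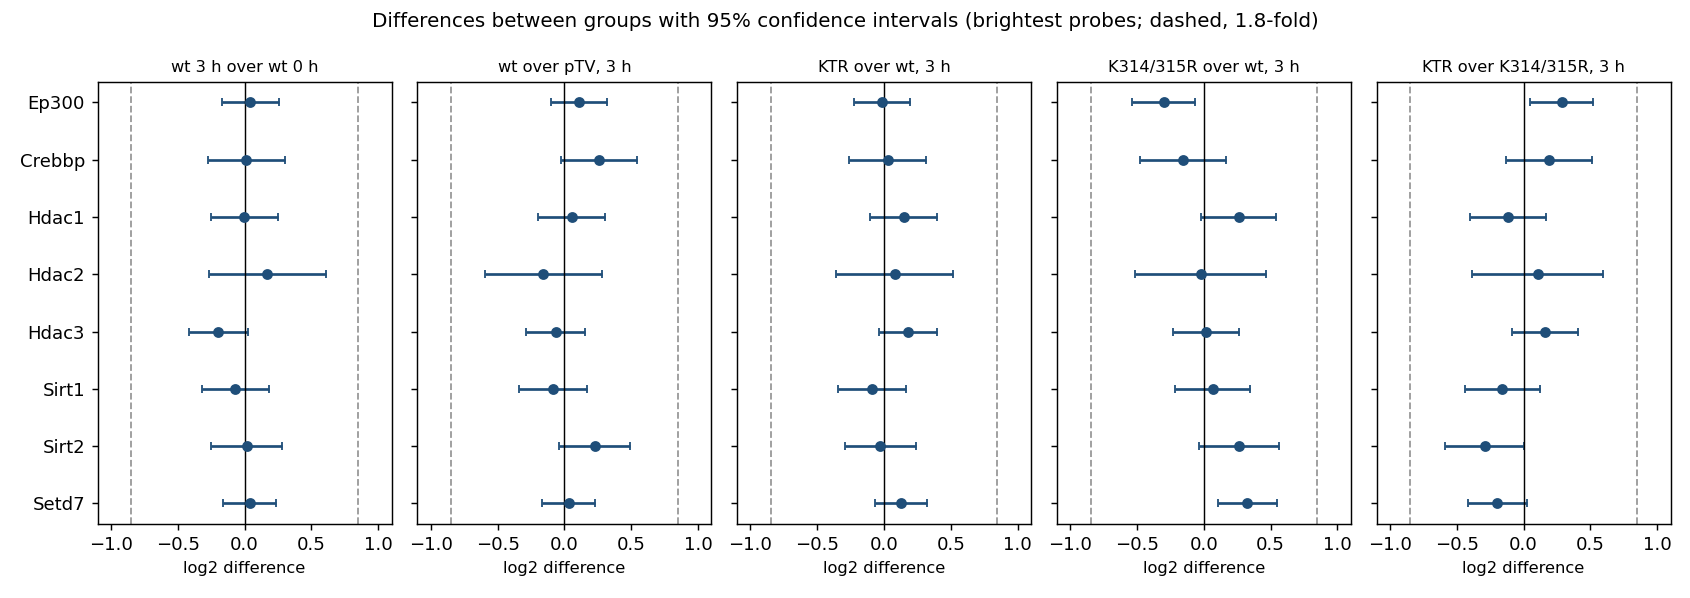
Log2 difference between group means (x axis) for the brightest probe of each of the 8 enzymes in the 5 comparisons, 1 panel each. Points are limma estimates, bars their 95% confidence intervals and dashed lines a 1.8-fold change. All 40 intervals lie between the dashed lines, and those that exclude 0 are *Ep300* and *Setd7* in K314/315R over wild type and *Ep300* in KTR over K314/315R, none with an adjusted p under 0.05.

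The spread over the 5 groups was small beside that of other probes. The range of the 5 group means had a median of 0.29 over the 16 enzyme probes and of 0.46 over all tested probes, in log2 units. It was below the median of all tested probes for 15 of the 16, the exception being *Sirt2* probe A_52_P547447 with 0.49. The smallest range, 0.16, was that of *Sirt1* probe A_51_P141152, and 4.52% of tested probes had a smaller one.

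**Figure D2:**
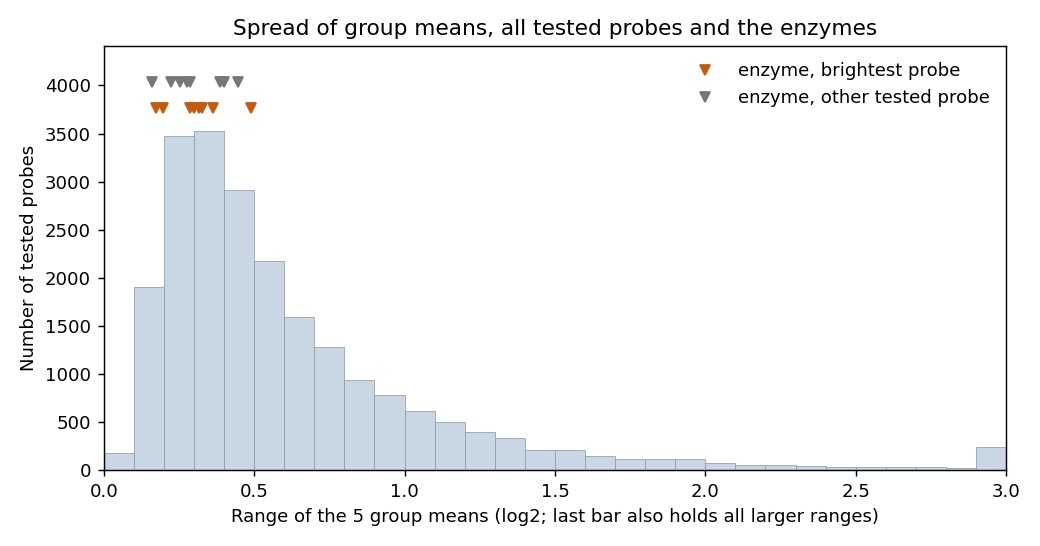
Histogram of the range of the 5 group means (x axis, log2 units) over all tested probes (y axis, number of probes), the last bar also holding all larger ranges. Triangles mark the tested enzyme probes, orange for the brightest of each gene and grey for the others. They lie between 0.16 and 0.49, and 15 of 16 are below the median of all tested probes, 0.46.

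When the group means of each brightest probe were put in order, there were 32 pairs of neighbouring groups, 4 per gene. In 28 of these the arrays of the neighbours overlapped. The 4 exceptions involved the mutants: K314/315R below pTV for *Ep300*, K314/315R above wild type at 3 h for *Sirt2*, and for *Setd7* KTR above wild type at 3 h and K314/315R above KTR. The same counts were not made over all tested probes, and K314/315R had only 2 arrays. These counts therefore do not set the enzymes apart from other genes.

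**Figure D3:**
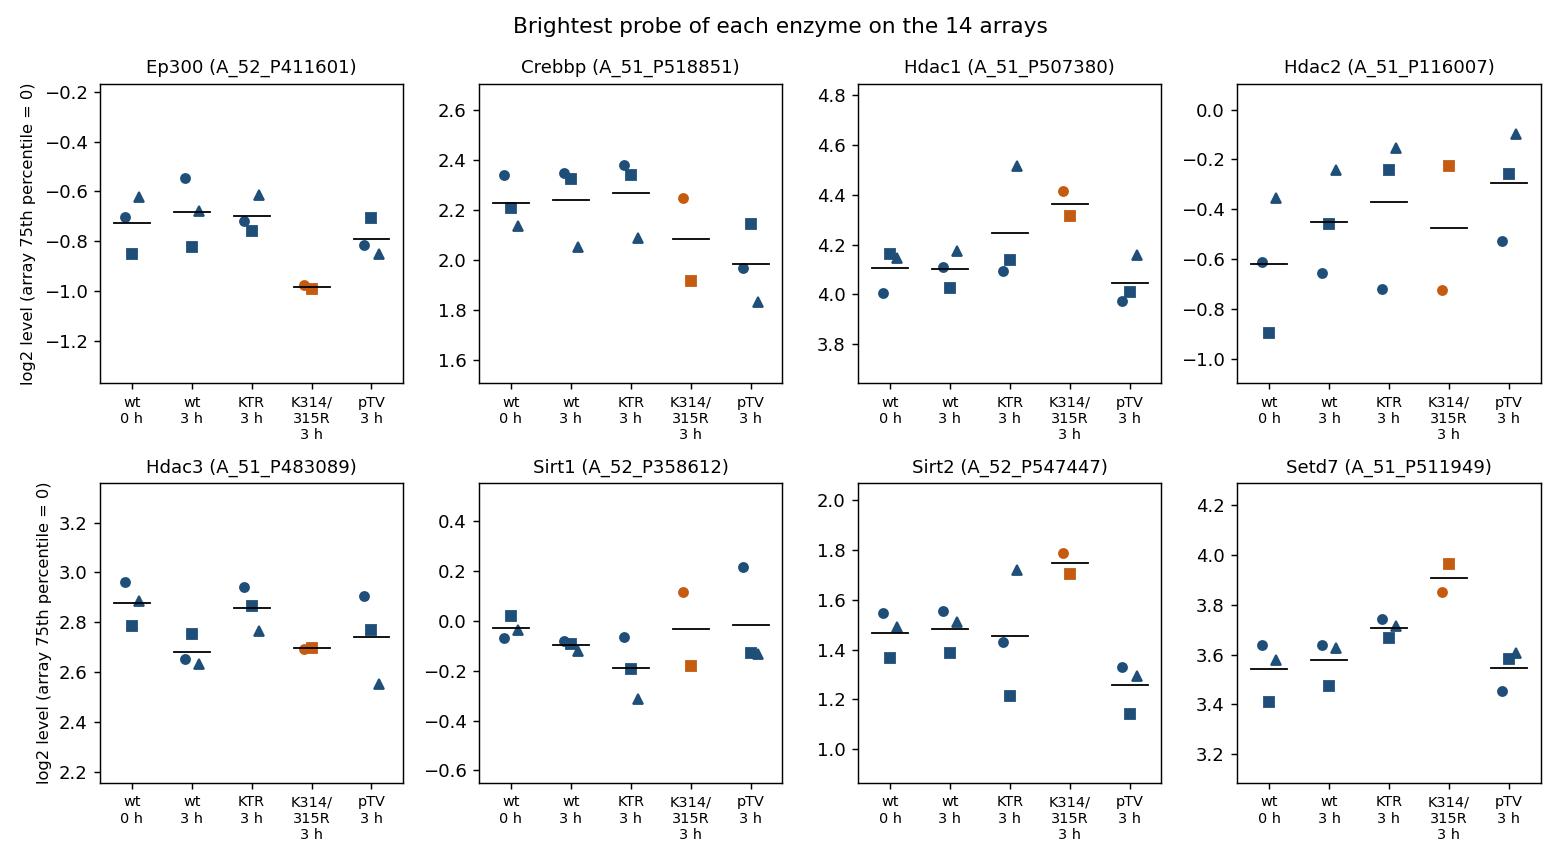
Level of the brightest probe of each enzyme (y axis, log2 relative to the 75th percentile of the array, each panel spanning 1.2 log2 units) on the 14 arrays, by group. Circles, squares and triangles are replicates 1, 2 and 3, black lines are group means, and orange marks the K314/315R arrays, which were on a slide of their own. Both K314/315R arrays lie below all others for *Ep300* and above all others for *Setd7*.

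*Ep300* had 4 probes, of which the 2 designed to its RefSeq transcript were tested and the 2 designed to cDNA clones were not well above background on any array. The brightest, A_52_P411601, read -0.70, -0.85 and -0.62 in wild type cells at 0 h and -0.55, -0.82 and -0.68 after 3 h of TNFα. In KTR it read -0.72, -0.76 and -0.61, in K314/315R -0.98 and -0.99, and in pTV -0.82, -0.71 and -0.85. Both K314/315R arrays thus lay below every other array, while the other 4 groups overlapped.

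K314/315R was below wild type by -0.30 at this *Ep300* probe (95% interval -0.54 to -0.06, unadjusted p = 0.0169, adjusted p = 0.172). KTR was above K314/315R by 0.29 (0.05 to 0.52, adjusted p = 0.152), and KTR differed from wild type by -0.02 (-0.23 to 0.20). The second *Ep300* probe, A_52_P179662, read -2.97 and -3.44 in K314/315R and -3.01, -3.27 and -3.05 in wild type at 3 h, values that overlapped. Its difference was -0.09 (-0.49 to 0.30). The 2 probes correlated at 0.35 over the 14 arrays, which share slides and labelling.

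*Crebbp* had 3 tested probes. The brightest, A_51_P518851, is annotated to a cDNA clone and not to a RefSeq transcript, A_52_P239850 is designed to the RefSeq transcript, and A_51_P448224, from another GenBank entry, was well above background on only 1 of 3 KTR and 2 of 3 pTV arrays. Probe A_51_P518851 read 2.34, 2.21 and 2.14 in wild type at 0 h and 2.35, 2.32 and 2.05 at 3 h. KTR arrays read 2.38, 2.34 and 2.09, K314/315R arrays 2.25 and 1.92, and pTV arrays 1.97, 2.14 and 1.83. The array on slide 3 was the lowest in each of the 4 groups on slides 1 to 3, and the groups overlapped.

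Wild type cells exceeded pTV cells at this *Crebbp* probe by 0.26 (95% interval -0.03 to 0.55, a fold of 1.20, adjusted p = 0.243). Within slides 1, 2 and 3 the difference was 0.38, 0.18 and 0.22. Over the alternative settings with all arrays kept in each group it fell as low as 0.15. With the slide, which is the replicate number, as a fixed block and the K314/315R arrays left out, a replicate block chosen after seeing the data, the difference of 0.26 had an interval of 0.10 to 0.42 and an adjusted p of 0.0257. That fit called 28.4% of all tested probes and 1 of the 16 enzyme probes, this one. The other *Crebbp* probes gave 0.11 (-0.23 to 0.44) and 0.21 (-0.35 to 0.76), and the first correlated with them over the arrays at 0.50 and -0.28.

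The promoter of *Crebbp* is shown because the gene had the largest difference between cells with and without p65, at its brightest probe, in the main fit. That difference was not called there. These are the 250 bases before the annotated start, chr16:4213405-4213654 of GRCm38.p6 on the minus strand, from RefSeq. Capitals mark the match to the core of the κB site bound by p65, 3 G, 5 of any base and 2 C on either strand, which begins at position -176. It is a match to this loose core and not to the full κB consensus, and regulation by p65 was not tested.
Crebbp: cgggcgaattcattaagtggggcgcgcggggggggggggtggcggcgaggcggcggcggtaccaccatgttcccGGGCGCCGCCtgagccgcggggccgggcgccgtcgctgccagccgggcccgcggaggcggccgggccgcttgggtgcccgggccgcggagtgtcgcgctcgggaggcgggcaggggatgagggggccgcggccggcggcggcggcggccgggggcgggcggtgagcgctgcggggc
RefSeq promoters were matched for 6 of the 8 genes, *Hdac1* and *Hdac3* being the others. In windows that also include the first 50 transcribed bases, 5 of the 6 held the core, as did 50.8% of 32851 promoters. The 6 windows held 16 to 49 CpG dinucleotides, where the median of all promoters was 7.

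*Hdac1* had 1 probe, A_51_P507380, well above background on all arrays. It read 4.01, 4.16 and 4.15 in wild type at 0 h, 4.11, 4.02 and 4.17 at 3 h, and 3.98, 4.01 and 4.16 in pTV. KTR arrays read 4.09, 4.14 and 4.52 and K314/315R arrays 4.41 and 4.31. Both K314/315R arrays lay above all wild type and pTV arrays, and of the KTR arrays only replicate 3 was as high.

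K314/315R exceeded wild type at *Hdac1* by 0.26 (95% interval -0.02 to 0.54, adjusted p = 0.326), and KTR exceeded wild type by 0.15 (-0.11 to 0.40). Without KTR replicate 3, the array with the most spots set aside as outliers (326), the latter was 0.0122. No spot of the 8 enzymes was among those set aside, and the part of that array in the difference was not tested. TNFα changed the level in wild type by -0.0027 (-0.25 to 0.25), and wild type differed from pTV by 0.06 (-0.20 to 0.31). With normexp background correction these differences were -0.30 and -0.13.

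*Hdac2* had 1 tested probe, A_51_P116007, while a probe to a cDNA clone was not well above background on any array. The tested probe read -0.61, -0.90 and -0.36 in wild type at 0 h and -0.65, -0.46 and -0.24 at 3 h. KTR arrays read -0.72, -0.24 and -0.15, K314/315R arrays -0.72 and -0.23, and pTV arrays -0.53, -0.26 and -0.10. All 5 groups overlapped, and the array on slide 3 was the highest in each of the 4 groups on slides 1 to 3.

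The spread within groups was larger for *Hdac2* (pooled SD 0.27) than for the brightest probe of the other 7 genes (0.09 to 0.16), and its intervals were the widest among those probes. TNFα gave 0.17 (95% interval -0.27 to 0.61), wild type over pTV -0.16 (-0.60 to 0.28), KTR over wild type 0.08 (-0.36 to 0.52) and K314/315R over wild type -0.02 (-0.51 to 0.47).

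*Hdac3* had 1 probe, A_51_P483089. Wild type cells read 2.96, 2.78 and 2.89 at 0 h and 2.65, 2.75 and 2.63 after TNFα, and these groups did not overlap. KTR arrays read 2.94, 2.87 and 2.77, K314/315R arrays 2.69 and 2.70, and pTV arrays 2.91, 2.77 and 2.55. The KTR arrays were all above the wild type arrays at 3 h, and pTV arrays overlapped every group.

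The difference of *Hdac3* after TNFα was -0.20 (95% interval -0.42 to 0.02, a fold of 0.871, adjusted p = 0.357), the largest of the brightest probes in that comparison. Within slides 1, 2 and 3 it was -0.31, -0.03 and -0.25. KTR exceeded wild type by 0.18 (-0.04 to 0.40, adjusted p = 0.650), with 0.29, 0.11 and 0.13 within slides. With normexp background correction the differences were -0.46 after TNFα and 0.50 in KTR over wild type (adjusted p = 0.594 and 0.650). K314/315R differed from wild type by 0.02 (-0.23 to 0.26).

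*Sirt1* had 2 probes, both to its RefSeq transcript and both well above background on all arrays. The brighter, A_52_P358612, read -0.07, 0.02 and -0.04 in wild type at 0 h and -0.08, -0.09 and -0.12 at 3 h, without overlap. KTR arrays read -0.06, -0.19 and -0.31, K314/315R arrays 0.12 and -0.18, and pTV arrays 0.22, -0.13 and -0.13. The TNFα difference was -0.07 (95% interval -0.32 to 0.18, adjusted p = 0.850).

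At the other *Sirt1* probe, A_51_P141152, the TNFα difference had the opposite sign, 0.10 (-0.16 to 0.36). Between the lines, the differences of the 2 probes ran from -0.16 to 0.07. The narrow range of group means placed *Sirt1* among the least variable of the 8 genes, as a description of these arrays.

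*Sirt2* had 3 probes to its RefSeq transcript, all well above background on all arrays. The brightest, A_52_P547447, read 1.55, 1.37 and 1.49 in wild type at 0 h and 1.55, 1.39 and 1.51 at 3 h. KTR arrays read 1.43, 1.22 and 1.72, K314/315R arrays 1.79 and 1.70, and pTV arrays 1.33, 1.14 and 1.29. The pTV arrays were all below the wild type arrays, and the K314/315R arrays were above them.

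Wild type cells exceeded pTV cells at this *Sirt2* probe by 0.23 (95% interval -0.04 to 0.49, a fold of 1.17, adjusted p = 0.272). Within slides 1, 2 and 3 the difference was 0.22, 0.24 and 0.22. With normexp background correction it fell to 0.06. The other *Sirt2* probes gave 0.19 (-0.11 to 0.49) and 0.16 (-0.05 to 0.37), so that the means of all 3 probes were higher in wild type, none past the test. The 3 probes correlated with each other at 0.51 to 0.72 over the arrays.

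K314/315R exceeded wild type at the brightest *Sirt2* probe by 0.26 (95% interval -0.03 to 0.56, adjusted p = 0.354), but at the other probes the differences were -0.04 (-0.38 to 0.29) and 0.05 (-0.19 to 0.28). KTR was below K314/315R by -0.29 (-0.59 to 0.01, adjusted p = 0.244). Without KTR replicate 3 this was -0.42 (adjusted p = 0.0663), and the wild type comparison of KTR went from -0.03 to -0.16.

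The promoter of *Sirt2* is shown because it alone among the 6 held a match to the full κB consensus, which 8.46% of all promoters held, and because its difference between wild type and pTV came next to that of *Crebbp* in the main fit. The 250 bases before the annotated start lie at chr7:28766502-28766751 of GRCm38.p6 on the plus strand (RefSeq). Capitals mark overlapping matches to the κB core on both strands, the first beginning at position -246.
Sirt2: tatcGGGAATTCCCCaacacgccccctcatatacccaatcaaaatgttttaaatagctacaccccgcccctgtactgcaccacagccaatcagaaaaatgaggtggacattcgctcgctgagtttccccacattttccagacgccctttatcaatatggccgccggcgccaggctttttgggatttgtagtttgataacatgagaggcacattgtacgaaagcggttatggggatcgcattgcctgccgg
A match of letters is a description of the sequence and not of binding in these cells.

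*Setd7* had 4 probes to its RefSeq transcript, of which 3 were tested. The brightest, A_51_P511949, read 3.64, 3.41 and 3.58 in wild type at 0 h, 3.64, 3.47 and 3.63 at 3 h, and 3.45, 3.58 and 3.61 in pTV. KTR arrays read 3.74, 3.67 and 3.71 and K314/315R arrays 3.85 and 3.96. All mutant arrays were above all other arrays, and those of K314/315R were above those of KTR.

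K314/315R exceeded wild type at this *Setd7* probe by 0.33 (95% interval 0.10 to 0.55, a fold of 1.25, unadjusted p = 0.00758, adjusted p = 0.120), the largest difference of a brightest probe in any comparison. With the replicate number as a block over all arrays, a replicate block that pairs the K314/315R arrays by number although they shared no slide with the others, the adjusted p was 0.0457. With the slide as a random block it was 0.250. KTR exceeded wild type by 0.13 (-0.07 to 0.32, adjusted p = 0.730), with 0.10, 0.19 and 0.08 within slides, and was below K314/315R by -0.20 (-0.42 to 0.02, adjusted p = 0.286).

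The second *Setd7* probe, A_52_P306496, read 3.22 and 3.50 in K314/315R against 3.03, 3.03 and 3.25 in wild type at 3 h, with overlap. Its difference was 0.25 (-0.12 to 0.63), and it correlated with the brightest at 0.66. The dim probe A_52_P679434 gave -0.26 (-0.80 to 0.28) and, in KTR over wild type, -0.39 (-0.87 to 0.10). There, KTR replicate 3 read -3.95 and was not well above background, and the other 13 arrays read between -3.58 and -2.92.

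For each brightest probe, the probes of other named genes with the most similar pattern over the 14 arrays were sought among 19152. They were *Jrkl* (r = 0.83) and *A930031D07Rik* (0.82) for *Ep300*, *F730043M19Rik* (0.89) and *Rab7l1* (0.88) for *Crebbp*, *Gmfb* (0.93) and *Chfr* (0.92) for *Hdac1*, and *Zdhhc20* (0.96) and *Dars* (0.95) for *Hdac2*. For *Hdac3* they were *Ssr3* (0.91) and *Avpi1* (0.85), for *Sirt1* *Rmnd5a* (0.90) and *Bat2* (0.89), for *Sirt2* *Copg* (0.95) and *Ick* (0.94), and for *Setd7* *Hbld2* (0.93) and *Bap1* (0.92). None of the 8 enzymes was the nearest neighbour of another. Among the enzymes themselves the highest correlation was 0.73, between *Hdac1* and *Sirt2*, and the lowest -0.65, between *Hdac2* and *Sirt1*. These are descriptions over arrays that share slides and groups.

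Other genes that modify or read p65 and histones were set beside the 8 enzymes, in 7 lists of 54 genes, of which 53 were tested at their brightest probe and *Hdac9* was not. After TNFα, 0 of 53 rose and 2 fell, against 4.68% of all tested probes called, and the median difference was -0.06, where that of all tested probes was -0.04 and that of the 16 enzyme probes 0.0047. For wild type over pTV, 1 of 53 was higher and 2 were lower, against 14.8% of all tested probes called, with a median of 0.02 against -0.03 over all probes and 0.07 over the enzyme probes. For KTR over wild type limma called 0 of 53 (lowest adjusted p 0.466), against 0.235% of all tested probes. For K314/315R over wild type the count was also 0 (lowest adjusted p 0.115), against 2.21%, and for KTR over K314/315R 1 was higher, against 5.41%. With the slide as a fixed block on slides 1 to 3, a replicate block, the counts were 1 higher and 11 lower after TNFα, against 14.8% of all tested probes called by that fit, and 5 higher and 5 lower for wild type over pTV, against 28.4%. These shares hold both directions, and probes called lower or higher by that fit were not counted apart. With normexp background correction none of the 6 calls of the unblocked fit held. That setting called few probes at all, 17 higher and 6 lower after TNFα and 302 higher and 83 lower for wild type over pTV. For KTR over K314/315R it called 0 of all tested probes, so that no call could hold there.

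**Figure D4:**
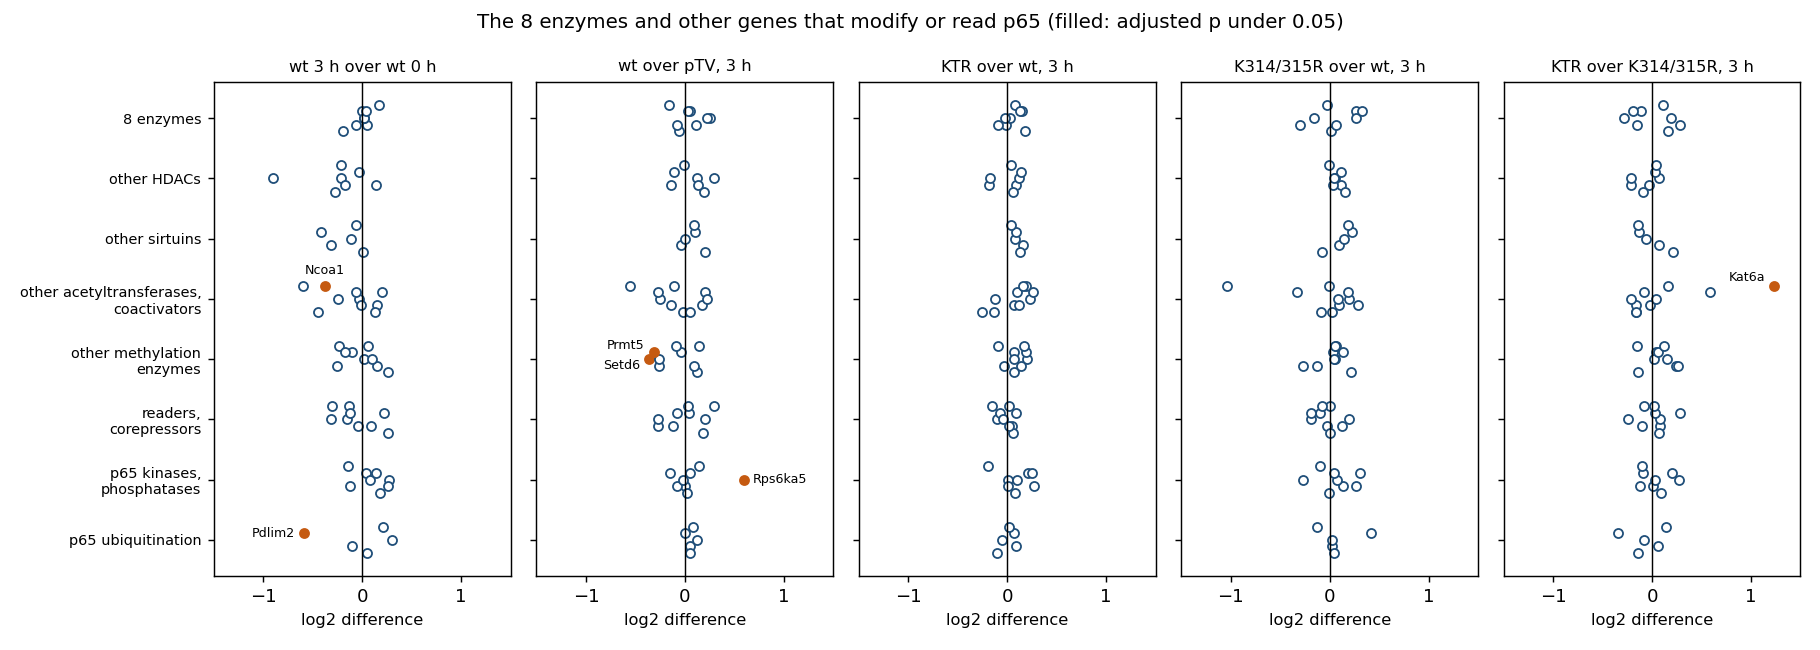
Log2 difference (x axis) of the brightest probe of each of the 8 enzymes and of 53 other genes in 7 lists (rows), 1 panel per comparison. Filled orange points passed an adjusted p under 0.05 and are named. There are 6 of them, none among the 8 enzymes.

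Among deacetylases, *Hdac4* to *Hdac11* gave 0 calls of 7 tested genes in each comparison. The largest difference was that of *Hdac11*, a small class IV deacetylase, which was -0.90 after TNFα (95% interval -1.53 to -0.28, adjusted p = 0.110), with wild type means of -2.82 at 0 h and -3.72 at 3 h and no overlap. The sirtuins *Sirt3* to *Sirt7* gave 0 calls of 5 tested genes. *Sirt5*, a mitochondrial deacylase, differed by -0.41 after TNFα (-0.69 to -0.14, adjusted p = 0.0938). With the slide as replicate block, 2 of the 7 and 2 of the 5 were lower after TNFα, *Hdac8* (adjusted p = 0.0402), *Hdac11* (0.00237), *Sirt3* (0.0374) and *Sirt5* (0.00707), where *Hdac8* and *Sirt3* were named after their values were seen. That fit called 14.8% of all tested probes in either direction, and the share called lower was not counted.

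Among 10 acetyltransferases and coactivators, *Ncoa1*, a p160 coactivator that binds p300 and CBP, fell after TNFα by 0.38 (95% interval -0.57 to -0.19, adjusted p = 0.0257), from 0.65 to 0.27. It was not called without wild type 3 h replicate 2 or 3 or without wild type 0 h replicate 1 or 3, with differences over all such omissions of -0.43 to -0.35 and adjusted p up to 0.110, nor with normexp (0.594) or no filter on dim probes (0.0910). With the slide as replicate block it was called (adjusted p = 0.00983), as 1 of 3 lower genes of the 10, where that fit called 14.8% of all tested probes. For wild type over pTV 2 of the 10 were then higher and 1 was lower, against 28.4%. *Kat6a*, named *Myst3* on the array, was higher in KTR than in K314/315R by 1.23 (0.53 to 1.93, adjusted p = 0.0469), at -3.18 against -4.42. Without any 1 of the 5 arrays it was not called (1.06 to 1.40, adjusted p 0.0529 to 0.174). The call was lost in 11 of 14 alternatives in all. It went to 0.44 with normexp (adjusted p = 1.00) and to 0.93 with quantile normalization (0.161), and was also lost with the deposited table, outlier spots kept, the slide as a random block, and only the 2 groups compared (1.15 to 1.23, adjusted p 0.0548 to 0.103).

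Among 9 enzymes of methylation, *Setd6*, a methyltransferase of p65 named *0610039J04Rik* on the array, was lower in wild type than in pTV by -0.36 (95% interval -0.59 to -0.13, adjusted p = 0.0364). *Prmt5*, an arginine methyltransferase, was lower by -0.32 (-0.51 to -0.12, adjusted p = 0.0347). Without any 1 of the 6 arrays *Setd6* was not called (adjusted p 0.0501 to 0.131), and *Prmt5* was called only without wild type 3 h replicate 2 (0.0467 to 0.146). Both calls were also lost with normexp (adjusted p 0.824 and 0.997), with the deposited table (0.0566 and 0.0596) and when dim probes were kept (0.0983 and 0.0993), and that of *Prmt5* with only the 2 groups compared (0.0684). Neither gene overlapped between the groups. With the slide as replicate block, 4 of the 9 were lower in wild type than in pTV, among them *Setd6* (adjusted p = 0.00519) and *Prmt5* (0.00600). That fit called 28.4% of all tested probes in either direction.

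The 9 readers and corepressors gave 0 calls in each comparison. The largest difference was that of *Ing4*, a PHD finger protein, which was -0.32 after TNFα (95% interval -0.52 to -0.13, adjusted p = 0.0680), with wild type means of 3.59 at 0 h and 3.27 at 3 h and no overlap. With the slide as replicate block, *Ing4* and *Tbl1xr1* were called, both lower after TNFα (adjusted p = 0.0146 and 0.0167) and both higher in wild type than in pTV (0.0488 and 0.00938), *Tbl1xr1* being named after its values were seen.

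Among 8 kinases and phosphatases of p65, *Rps6ka5*, which encodes MSK1, a kinase that phosphorylates p65, was higher in wild type than in pTV by 0.59 (95% interval 0.28 to 0.91, adjusted p = 0.0152). It was called only without wild type 3 h replicate 1 or pTV replicate 3 when single arrays were left out (0.55 to 0.67, adjusted p 0.0225 to 0.0592), and with normexp it was 0.45 and not called (adjusted p = 1.00). Among 5 genes of p65 ubiquitination, *Pdlim2*, a nuclear ubiquitin ligase of p65, fell after TNFα by 0.59 (-0.91 to -0.27, adjusted p = 0.0407). It was called only without wild type 3 h replicate 1 (-0.68 to -0.48 over the 6 omissions, adjusted p 0.0497 to 0.164). It was also lost with normexp (-0.91, adjusted p = 0.320), the deposited table (0.0675), no filter on dim probes (0.116) and only the 2 groups compared (0.0592). With the slide as replicate block *Rps6ka5* (adjusted p = 0.00127) and *Pdlim2* (0.00109) were called, where that fit called 28.4% and 14.8% of all tested probes. After TNFα 1 of the 8 kinases and phosphatases was then higher.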

How the data were processed

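Per the file headers, the authors deposited spot intensities of 1-colour (Cy3) arrays, corrected for background and spatial trend by Feature Extraction (9.1.1.1, and 9.1.3.1 for slide 4). Their table of normalized intensities equals that signal times 1 factor per array (0.837 to 1.20) and was an alternative. The Rosetta Resolver analysis of the study could not be repeated.

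Outlier spots (1 to 326 on an array) were dropped, spots averaged by probe, and log2 values centred on the 75th percentile. Probes above background on all arrays of 1 or more groups were tested with limma 3.58.1 in R 4.3.3, all 14 arrays in 1 two-sided fit, with Benjamini-Hochberg adjustment. The code was tested on simulated data. The number of arrays limits the precision. The members, the other lists and the tests were chosen with earlier results of these data known. Named genes are the members, the 2 nearest patterns of each, and per list up to 2 called genes per comparison or, with none called, the gene of largest difference. Of the listed genes, 1 reader or corepressor is not reported here and is in no count of the lists.

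Deviations from group means correlated at 0.308 to 0.613 in the 18 same-number pairs of arrays on slides 1 to 3 and at -0.510 to 0.0954 in the 36 others, so the number, which is the slide, pairs those arrays. Alternatives varied background, scaling, filter, outlier spots, blocks and arrays.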

Additional observations from a re-analysis of the deposited data

Results flagged for a closer look

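*Kat6a* differed between the 2 mutants by 1.23 on the log2 scale (KTR over K314/315R, probe A_52_P411358, adjusted p = 0.0469, limma), by a test of that difference. The call was lost in 11 of 14 alternatives, among them leaving out any 1 of the 5 arrays, and the difference was 0.44 with normexp (adjusted p = 1.00). Normexp called 0 of all tested probes in that comparison. K314/315R was on a slide of its own, so that slide and line cannot be told apart. None of the 16 probes of the 8 enzymes met this criterion.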

How the results depend on the processing

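Of the 16 enzyme probes, 0 were called in each comparison with normexp background correction, quantile normalization or the deposited table. The same held with outlier spots kept, slide as a random block, and only the 2 groups compared. It also held without single arrays of the groups with 3 (0 to 0). A filter asking for clear signal on each of the 14 arrays gave 0 calls too, but of fewer enzyme probes. That filter left out *Crebbp* probe A_51_P448224 and *Setd7* probe A_52_P679434, which exceeded background clearly on 11 and 13 arrays. With no filter on dim probes, 1 of 20 was called for KTR over wild type, *Ep300* probe A_51_P304029 (adjusted p = 0.0299), which was not well above background on any array, and this setting called 19.9% of all probes there. With the replicate number as a fixed block (replicate block), 1 was called for K314/315R over wild type, *Setd7*, where that fit called 10.7% of tested probes, and 0 in the other comparisons. With the slide as replicate block on slides 1 to 3, added after seeing the data, 1 was called for wild type over pTV, *Crebbp*. The cause was not tested.

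The largest difference of a brightest probe in any comparison, 0.33, was 0.52 with normexp (*Sirt2* in K314/315R over wild type) and ran from 0.33 to 0.42 without single arrays, the latter without KTR replicate 3. Of 384 differences under the other settings, 23 moved by more than the pooled SD, all of them among the 40 with normexp, and 18 changed sign, from at most 0.105 to at most 0.266 in size. With normexp, 24 of 40 grew over 1.5 times, among them KTR over wild type for *Setd7* (0.13 to 0.44), *Hdac1* (0.15 to 0.44) and *Crebbp* (0.03 to 0.33), and none was called. Of 224 without single arrays, 10 moved and 30 changed sign. Under normexp the median of all tested probes after TNFα went from -0.04 to 0.07, and limma called 23 probes there against 1037. For KTR over wild type it called 0 higher and 1 lower, and 0 in both comparisons with K314/315R. The absence of enzyme calls under normexp was therefore largely fixed in advance. Signal over background limited 4 of the 20 probes, which were not tested.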
